A study of Mus musculus with 28 samples.

Results

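Regulatory T (Treg) cells in which complex III of the mitochondrial respiratory chain was inhibited with antimycin A were compared, across all expressed genes, with Treg cells in which complex I was inhibited with piericidin. The members were chosen by their labels: 3 libraries labelled AntimycinA and 3 labelled Piericidin, 6 of the 28 in the series. All were made from CD4+ YFP-Foxp3+ CD25+ cells of 3-week-old C57BL/6NJ mice of genotype RISP WT, so no cell in the comparison carried the deletion of complex III that the series studies elsewhere. Both inhibitors were given in vitro at 1 µM, and 2 further groups of the same cells served as reference: Untreated (n = 3) and 3-NPA, the complex II inhibitor 3-nitropropionic acid, at 500 µM (n = 3). The length of exposure and any vehicle for the Untreated cells are not given in the sources used here. The labels do not say whether replicates came from separate mice. The p-values therefore set differences between groups against a spread between libraries that may be only technical. The sort itself used a Foxp3 reporter and CD25, the product of Il2ra, so the presence of both transcripts was set by the gate.

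The inhibitors act at neighbouring steps of one chain. Complex I takes electrons from NADH and complex II from succinate, and both pass them to ubiquinone. Complex III then takes the electrons of reduced ubiquinone on to cytochrome c. Piericidin blocks the transfer from complex I to ubiquinone and leaves complex III able to oxidise ubiquinol that other enzymes make, while antimycin A blocks the ubiquinone reduction site of complex III and with it the outlet for ubiquinol from every source. Dihydroorotate dehydrogenase (Dhodh), a step of pyrimidine synthesis, is one of the enzymes that need oxidised ubiquinone. In Treg cells, the transcription factor Foxp3 maintains the lineage, and their suppressive function is known to depend on mitochondrial respiration.

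The 12 in vitro libraries held 2707199 to 3445930 counts, with 2738238 to 3257213 in Piericidin and 2717037 to 3413993 in AntimycinA, and no pair was a duplicate. In a scaling plot of all 12, Piericidin replicate 1 lay at -1.37 on dimension 2, where the other libraries lay between -0.37 and 0.81. AntimycinA replicate 3 lay at 1.18 on dimension 1, where the other libraries reached 0.46. Calls that rest on these libraries are given with and without them, while medians of gene lists include them unless stated. Of 14 T cell markers, all 14 were tested and 0 called, 6 were higher at an unadjusted p under 0.05 (of all 11689 genes tested, 628 or 5.37% were higher at that level and 599 or 5.12% lower), and DESeq2 called 1. Their summed level was 5370 to 5610 CPM (counts scaled to a common library size) in AntimycinA and 4940 to 5040 CPM in Piericidin. Natural killer markers were at 0 in all 6 libraries. Summed neutrophil and erythroid markers did not pass 0.359 and 1.12 CPM in AntimycinA, or 0.919 and 4.37 CPM in Piericidin. Summed epithelial and stromal markers were 100 to 106 CPM in AntimycinA and 55.5 to 79.1 CPM in Piericidin. Most of this was Pecam1, at 80.4, 69.9 and 88.7 against 68.7, 58.6 and 46.3 CPM. Col1a2 read 1.44, 16.1 and 2.24 against 0.370, 1.82 and 0 CPM. Of the 3 tested 0 were called (2 at an unadjusted p under 0.05, 0 by DESeq2), and the part of these markers in the results was not tested. The B cell list summed to 353 to 447 CPM in AntimycinA and 284 to 299 CPM in Piericidin, nearly all of it Ighm, while 3 of its 12 genes had no count. Of its 4 genes tested 1, Ighm, was called higher, and 2 were higher at an unadjusted p under 0.05: Ighm and Cd79b, at 3.95, 5.85 and 10.1 CPM in AntimycinA and 0.739, 2.55 and 3.68 CPM in Piericidin. Their part in the results was not tested.

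Few genes were called between the inhibitors. Of 11689 genes tested, 86 were called at an adjusted p under 0.05 (0.736%), 51 higher in AntimycinA (0.436%) and 35 lower (0.299%). The gene groups described here with the most calls were mitochondrial DNA (9 of 16 genes tested), target genes of the tumour suppressor p53 (9 of 23), glycolysis (9 of 25) and the tumour necrosis factor (TNF) family (3 of 14). The gene lists were chosen with earlier results of these data known. Of the 86, 37 differed more than 2-fold, the median size of their log2 fold changes was 0.85, and the median over all genes tested was 0.00. The CPM of AntimycinA and Piericidin did not overlap for any of the 86. Such separation was common, since 970 genes (8.30%) lay wholly higher and 877 (7.50%) wholly lower in AntimycinA.

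Against Untreated cells each inhibitor gave many more calls. AntimycinA differed from Untreated in 1754 genes (15.0%), with 760 higher (6.50%) and 994 lower (8.50%). Piericidin differed from Untreated in 1584 genes (13.6%), with 657 higher (5.62%) and 927 lower (7.93%). The 3 comparisons share libraries, so values against Untreated are set beside the values of AntimycinA against Piericidin and are not independent of them. The count of 86 fell to 43 without Piericidin replicate 1, to 57 without AntimycinA replicate 1, to 55 without AntimycinA replicate 2, and to 45 without both libraries that stood apart.

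**Figure D1:**
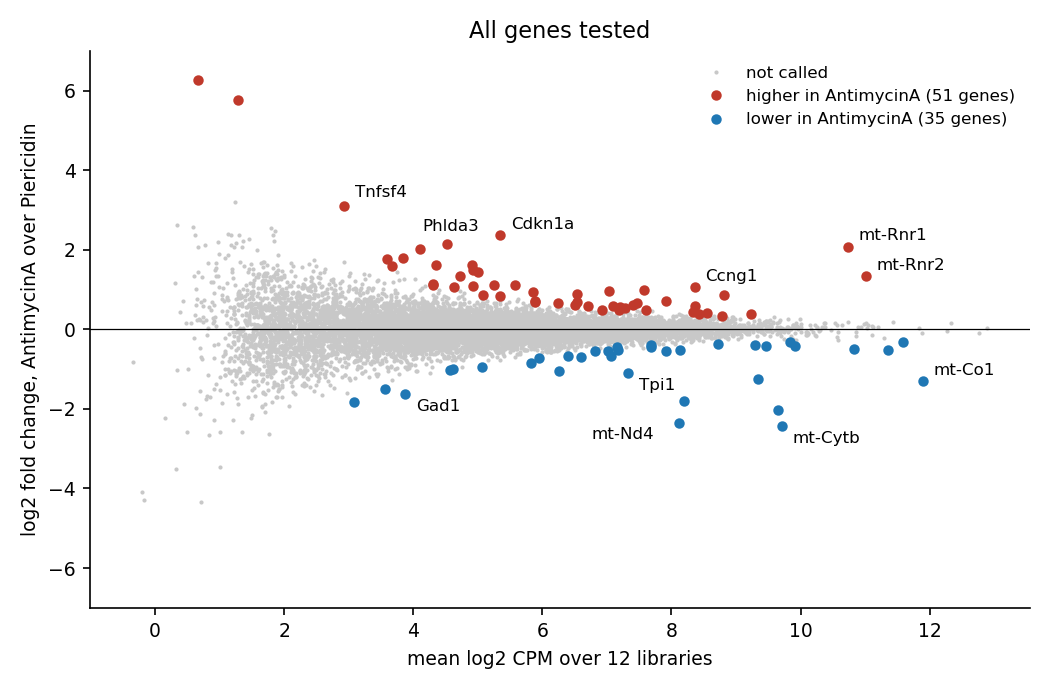
Log2 fold change of AntimycinA over Piericidin (y axis) against the mean log2 CPM over the 12 libraries (x axis) for all 11689 genes tested; red and blue points are the 51 genes called higher and the 35 called lower, grey points were not called. The called genes of mitochondrial DNA lie at high abundance on both sides of 0, and the 2 uppermost points are genes with almost no count in Piericidin, whose fitted fold change depends on the prior count.

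Transcripts of mitochondrial DNA gave the smallest p-values. Mitochondrial DNA encodes 13 mRNAs, 2 rRNAs and a set of tRNAs. Long precursor transcripts are read from each strand and are cut mainly at the tRNAs that lie between the other genes. The 2 rRNA genes lead the plus strand transcript, and the tRNA gene mt-Tl1 stands between the second rRNA gene, mt-Rnr2, and the first mRNA gene, mt-Nd1. Its sequence is shown because the direction of the difference changed from one side of it to the other. The stretch lies on the mitochondrial chromosome (MT:2646-2780, plus strand, GRCm38, GENCODE M21), with the 75 bases of mt-Tl1 in capitals between the last 30 bases of mt-Rnr2 and the first 30 of mt-Nd1.
mt-Rnr2 to mt-Nd1: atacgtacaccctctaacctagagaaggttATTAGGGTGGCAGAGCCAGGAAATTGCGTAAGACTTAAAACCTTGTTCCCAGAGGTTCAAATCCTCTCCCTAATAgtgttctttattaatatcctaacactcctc

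On the rRNA side, mt-Rnr1, the 12S rRNA (MT:70-1024), read 3380, 3380 and 3840 CPM in AntimycinA and 1040, 709 and 750 CPM in Piericidin. All 3 AntimycinA libraries were several times above every Piericidin library, with a log2 fold change of 2.08 ± 0.11 (SE, adjusted p = 1.19e-17). The 16S rRNA mt-Rnr2 (MT:1094-2675) read 3260, 3060 and 3540 CPM in AntimycinA and 1460, 1110 and 1340 CPM in Piericidin, a log2 fold change of 1.33 ± 0.09 (adjusted p = 6.30e-14). Both rRNAs were therefore higher in every AntimycinA library than in any Piericidin library. Per the labels' protocols the libraries were made after poly(A) selection, so these rRNA levels are those of molecules that passed the selection.

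On the mRNA side, all 7 mRNAs that could be tested were lower in AntimycinA. Cytochrome b (mt-Cytb, MT:14145-15288), the 1 subunit of complex III encoded in mitochondrial DNA, read 261, 399 and 444 CPM in AntimycinA and 2130, 1690 and 2140 CPM in Piericidin. Every AntimycinA library thus held less than every Piericidin library, with a log2 fold change of -2.43 ± 0.12 (adjusted p = 7.57e-18). The complex I subunit mt-Nd4 read 74.3, 136 and 168 CPM in AntimycinA and 737, 492 and 695 CPM in Piericidin (-2.35 ± 0.16, adjusted p = 2.94e-14). The groups did not overlap for mt-Nd4, nor for mt-Nd5 (-2.03 ± 0.11) and mt-Nd2 (-1.26 ± 0.11), also subunits of complex I. The complex IV subunit mt-Co1, the most abundant of these mRNAs in the mean of each group, read 1910, 2460 and 3000 CPM in AntimycinA and 6460, 5130 and 6640 CPM in Piericidin (-1.31 ± 0.10, adjusted p = 1.36e-12). The smallest difference was that of mt-Nd1 (-0.49 ± 0.10, adjusted p = 0.00559), at 1260, 1610 and 1790 CPM against 2540, 1810 and 2190 CPM. Called mRNAs numbered 6 in place of 7 by DESeq2, without Piericidin replicate 1 and without AntimycinA replicate 1, and mt-Nd1 was the one lost.

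Along the plus strand the difference ran from positive to more negative values. In map order the log2 fold changes were 2.08 and 1.33 for the rRNAs, -0.49 for mt-Nd1, -1.26 for mt-Nd2, -1.31 for mt-Co1, -2.35 for mt-Nd4, -2.03 for mt-Nd5 and -2.43 for mt-Cytb. Only mt-Nd4 and mt-Nd5 stood out of order, and their 95% intervals overlapped (-2.66 to -2.03 and -2.24 to -1.81). The 1 mRNA of the minus strand, mt-Nd6 of complex I (MT:13552-14070), was lower as well (-1.81 ± 0.14, adjusted p = 1.01e-12). It overlaps the end of mt-Nd5, and the strand setting of the counting is not given in the sources used here, so reads from one strand cannot be told from those of the other. Of 7 mitochondrial tRNAs tested, at low counts, 0 were called by edgeR and 3 were lower at an unadjusted p under 0.05.

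The opposite moves of rRNAs and mRNAs left their total less changed. The summed mRNAs read 4310, 5610 and 6560 CPM in AntimycinA and 15500, 11700 and 15100 CPM in Piericidin, while the summed rRNAs read 6640, 6440 and 7380 against 2500, 1820 and 2090 CPM. The ratio of rRNA to mRNA was 1.54, 1.15 and 1.13 in AntimycinA and 0.162, 0.155 and 0.138 in Piericidin. Untreated cells lay with Piericidin at 0.173, 0.156 and 0.175, and 3-NPA cells lay with AntimycinA at 1.06, 1.35 and 1.24. Per kilobase of gene, the mean levels of mt-Rnr1 were 809 CPM in Untreated, 872 in Piericidin, 3720 in 3-NPA and 3700 in AntimycinA, and those of mt-Cytb were 2350, 1740, 390 and 322 CPM. Against Untreated cells mt-Rnr1 was higher in AntimycinA (2.19 ± 0.11) and not called in Piericidin (0.11 ± 0.11, adjusted p = 0.573). Against the same cells mt-Cytb was lower in both, by -2.87 ± 0.12 in AntimycinA and -0.44 ± 0.11 in Piericidin, and mt-Co1 was lower in AntimycinA (-0.79 ± 0.10) and higher in Piericidin (0.51 ± 0.10).

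The remaining 6 mRNAs of mitochondrial DNA, among them mt-Co2, mt-Co3 and mt-Atp6, had no count in any of the 6 libraries and were not tested; they lie together between mt-Co1 and mt-Nd4. The summed mRNAs and the ratios above therefore cover 7 of the 13 mRNAs, and the cause of the zeros was not tested. The 14 nuclear genes listed for the turnover and processing of mitochondrial RNA had a median log2 fold change of 0.00, and edgeR and DESeq2 called 0 of them (2 were higher at an unadjusted p under 0.05). Mitochondrial ribosomal proteins, 36 tested, had a median of 0.02 with 0 called by either tool and 1 gene in each direction at an unadjusted p under 0.05.

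**Figure D2:**
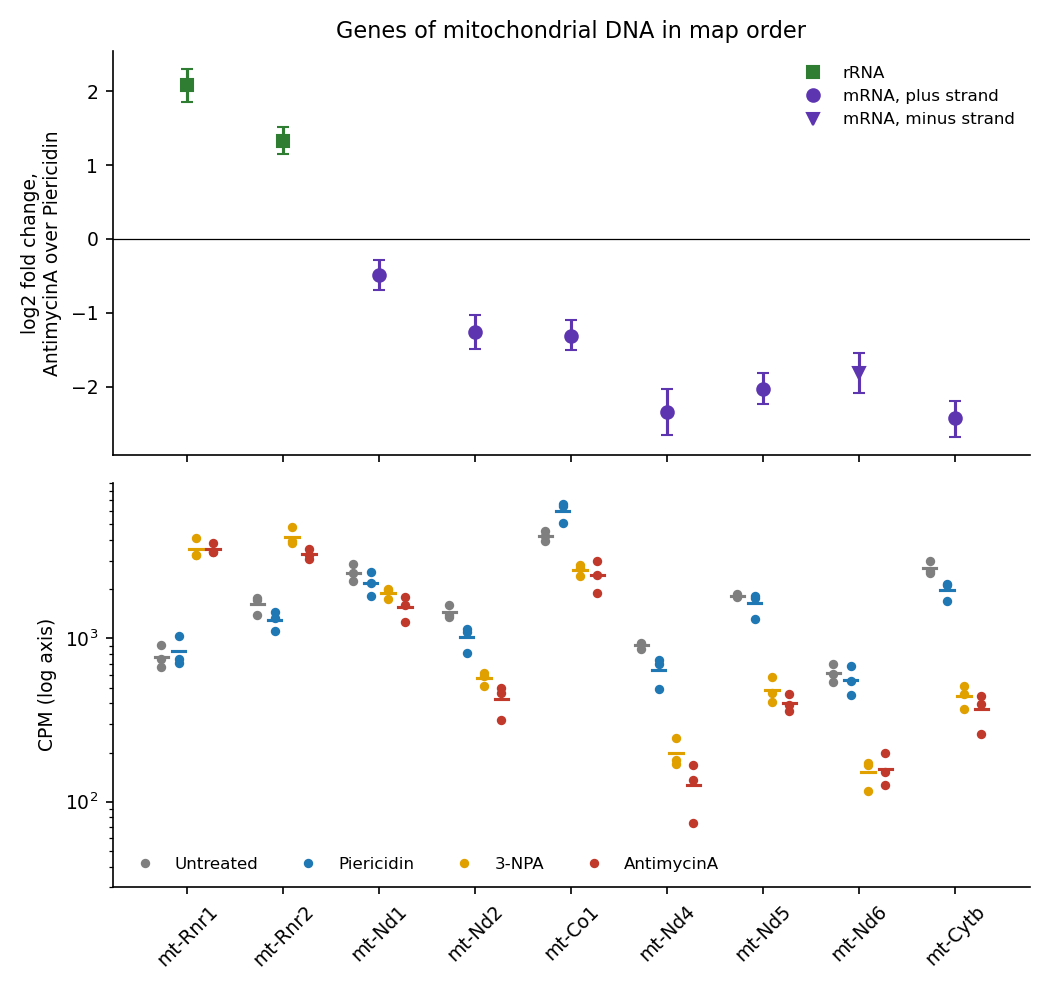
Upper panel, log2 fold change of AntimycinA over Piericidin with its 95% interval (y axis) for 9 genes of mitochondrial DNA in map order (x axis); squares are rRNAs, circles mRNAs of the plus strand and the triangle the mRNA of the minus strand. Lower panel, CPM of each library on a log axis (points) with the group mean (line), n = 3 per group; the rRNAs are high and the mRNAs low in AntimycinA and 3-NPA.

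Target genes of p53 were higher with antimycin A. The tumour suppressor p53 is a transcription factor that, when stabilised, raises genes that stop the cell cycle, promote apoptosis or repair DNA. Of 23 genes tested from the list, the p53 gene Trp53 among them, 9 were called higher and 0 lower, against 0.436% and 0.299% of all genes. Their median log2 fold change was 0.48, against 0.00 over all genes tested, and 15 of the 23 lay wholly higher in AntimycinA, as did 8.30% of all genes. The list was chosen with earlier results of these data known, so these shares are not an independent test. Cdkn1a, which encodes the cell cycle inhibitor p21 (chr17:29090979-29100722), read 113, 81.6 and 80.9 CPM in AntimycinA and 20.0, 14.6 and 19.0 CPM in Piericidin. The 2 groups were far apart, with a log2 fold change of 2.36 ± 0.20 (adjusted p = 4.94e-11).

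The other called targets cover several roles. Phlda3, an inhibitor of Akt signalling, read 63.2, 38.3 and 43.6 CPM in AntimycinA and 8.13, 10.6 and 13.5 CPM in Piericidin (2.15 ± 0.26). Ccng1, cyclin G1, read 552, 445 and 427 against 238, 203 and 242 CPM (1.06 ± 0.10, adjusted p = 4.30e-10). In both genes the lowest AntimycinA library was clearly above the highest Piericidin library. Bax, which opens the outer mitochondrial membrane in apoptosis, read 215, 169 and 168 against 86.1, 94.6 and 101 CPM (0.97 ± 0.12, adjusted p = 1.17e-06). Bbc3, which encodes the apoptosis inducer PUMA, read 44.9, 47.4 and 60.7 against 12.2, 16.7 and 25.1 CPM (1.48 ± 0.24). The remaining called targets were the kinase gene Plk2 (1.62 ± 0.27), the stress sensor Sesn2 (1.12 ± 0.25), the RNA-binding protein gene Zmat3 (0.89 ± 0.15) and Trp53inp1 (0.33 ± 0.09). Of the apoptosis list, 2 of 17 tested genes, Bax and Bbc3, were higher and 0 lower, with a median of 0.15. Apaf1, the scaffold of the apoptosome, is in neither list and was singled out after its values were seen. It was called higher at 137, 94.5 and 121 against 63.2, 68.8 and 86.7 CPM (0.68 ± 0.15, adjusted p = 0.0149), a call lost without Piericidin replicate 1 or 2 or AntimycinA replicate 1 or 3.

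Targets that did not pass included Mdm2, the ubiquitin ligase that degrades p53, at 0.41 ± 0.12 (adjusted p = 0.120), and the death receptor gene Fas at 0.58 ± 0.18 (adjusted p = 0.163). The p53 gene itself, Trp53, had a log2 fold change of 0.26 ± 0.10 (adjusted p = 0.286). Gadd45a, Ddb2, Xpc and Ccng2 lay between -0.10 and 0.08. The 9 calls became 5 against a 1.5-fold minimum, 7 without Piericidin replicate 1, Piericidin replicate 2 or AntimycinA replicate 1, and 6 without both libraries that stood apart. Sesn2 lost its call without each of those 3 libraries and Bbc3 without both that stood apart (adjusted p = 0.0503), and Trp53inp1 on leaving out any 1 of the 6 libraries, with RLE factors and in the fit of the 2 groups alone. Cdkn1a, Phlda3, Ccng1, Bax, Plk2 and Zmat3 kept theirs in every alternative run, the 1.5-fold minimum not being counted here.

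Beside Untreated cells, part of the difference lay in each inhibitor. Cdkn1a averaged 29.7 CPM in Untreated, 17.8 in Piericidin, 90.1 in 3-NPA and 91.7 in AntimycinA. It was higher than Untreated in AntimycinA (1.63 ± 0.19, adjusted p = 3.66e-08) and lower in Piericidin (-0.73 ± 0.22, adjusted p = 0.0183). Phlda3 was likewise higher in AntimycinA (1.21 ± 0.24) and lower in Piericidin (-0.94 ± 0.27), and so was Bax (0.44 ± 0.12 and -0.53 ± 0.12). Ccng1 and Bbc3 were higher in AntimycinA (1.05 ± 0.10 and 1.47 ± 0.24) and not called in Piericidin (0.00 ± 0.10 and -0.02 ± 0.26). Of the 23 targets, 14 were called higher and 0 lower in AntimycinA against Untreated, against 6.50% and 8.50% of all genes. In Piericidin against Untreated 2 were called higher and 4 lower, against 5.62% and 7.93% of all genes.

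The promoters of the called genes were searched for the p53 response element, a pair of adjoining decamers, in RefSeq windows of 300 bases (250 before to 50 after each start, GRCm38.p6, both decamer cores intact, at most 3 mismatches). Windows were matched by symbol for 39 of the 51 genes called higher and 25 of the 35 called lower. The element was found in 3 of the 39, in 0 of the 25, in 52 of the 8705 tested genes with a window (0.597%) and in 182 of all 27025 symbols with a window (0.673%). The 3 sequences are shown because they belong to genes that rose. The element is in capitals and the letters read 5′ to 3′ on the plus strand, with 1 mismatch in Cdkn1a and Gtse1 and 3 in Bbc3.
Cdkn1a, chr17:29090908-29090967: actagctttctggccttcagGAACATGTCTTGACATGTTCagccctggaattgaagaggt
Gtse1, chr15:85859925-85859964: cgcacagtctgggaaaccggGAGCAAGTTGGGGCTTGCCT
Bbc3, chr7:16309466-16309525: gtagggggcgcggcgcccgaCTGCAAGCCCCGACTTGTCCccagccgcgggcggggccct
These matches describe letters in the windows. Of the 23 targets tested, 16 had a window and 4 held the element: Cdkn1a, Bbc3, Aen (0.24 ± 0.17) and Trp53, and the last pair was not called.

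**Figure D3:**
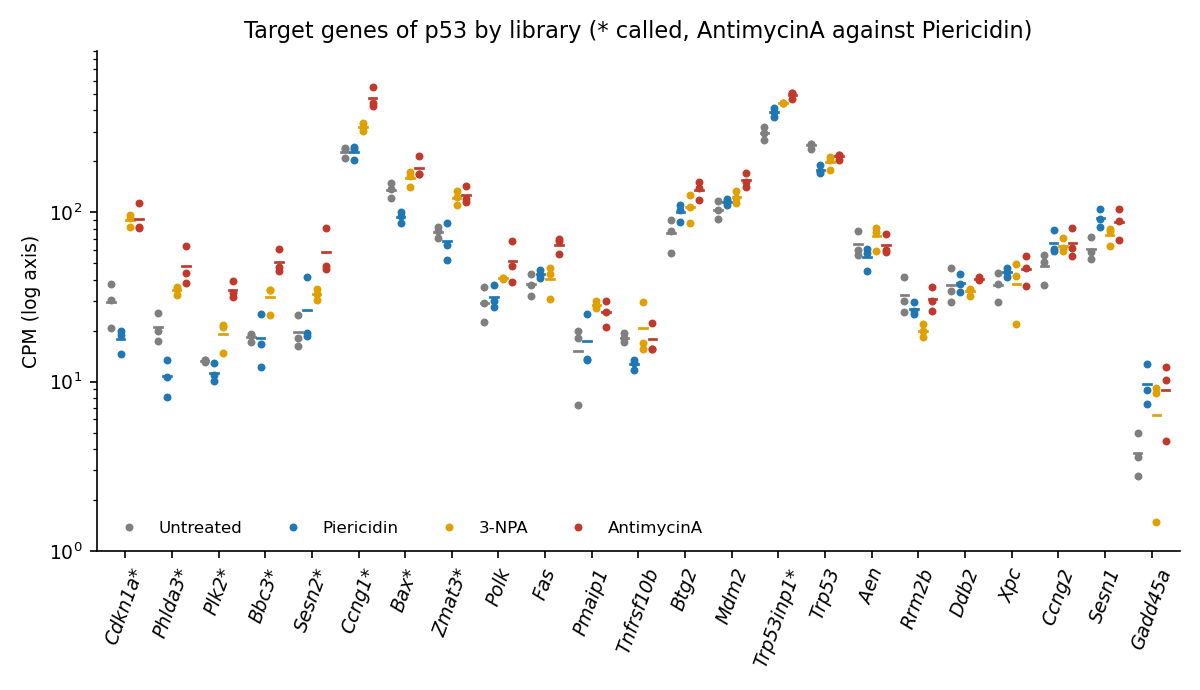
CPM of each library on a log axis (y axis; points, n = 3 per group, lines are group means) for the 23 tested p53 target genes, ordered by log2 fold change of AntimycinA over Piericidin from left (highest) to right (x axis), with called genes starred. For the called genes on the left all red AntimycinA points lie above all blue Piericidin points.

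Other rises lay outside mitochondrial DNA and the p53 list, which need not hold every p53 target. One was Tnfsf4, which encodes OX40 ligand, a costimulatory ligand for the receptor OX40. Tnfsf4 read 33.0, 16.1 and 21.2 CPM in AntimycinA and 0.370, 6.19 and 1.53 CPM in Piericidin. The Piericidin values rest on few reads, and the log2 fold change was 3.11 ± 0.52 (adjusted p = 2.72e-04). Psrc1, a spindle protein gene, read 38.4, 27.8 and 36.1 against 5.91, 7.64 and 11.0 CPM (2.03 ± 0.35). Gtse1, whose product binds p53 and is known to restrain it, read 59.6, 52.9 and 45.5 against 11.1, 22.6 and 17.8 CPM (1.61 ± 0.23, adjusted p = 1.15e-05). Its promoter window held the p53 element shown above. Dcxr, a carbonyl reductase gene, stood at 1.78 ± 0.38, Cdc42bpg, a kinase gene, at 1.77 ± 0.37, and Inka2, which encodes a kinase inhibitor, at 1.60 ± 0.38. In all 6 genes the groups did not overlap, and whether they are p53 targets was not tested. The calls of Dcxr, Cdc42bpg and Inka2 were lost without both libraries that stood apart. Cdc42bpg also lost its call without Piericidin replicate 1 or AntimycinA replicate 1, and Inka2 without Piericidin replicate 2, AntimycinA replicate 1 or AntimycinA replicate 3. Mgst3, a glutathione transferase gene singled out after its values were seen, had no count in Piericidin and 2.51, 3.22 and 3.73 CPM in AntimycinA, with 1.76 to 2.07 CPM in Untreated. Its call was lost on leaving out any 1 of these 6 libraries.

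The TNF superfamily held 2 more called ligands. Ltb, lymphotoxin beta, read 393, 400 and 424 CPM in AntimycinA and 268, 267 and 273 CPM in Piericidin (0.59 ± 0.09, adjusted p = 8.62e-05). Tnfsf8, which encodes CD30 ligand, read 294, 278 and 351 against 154, 197 and 214 CPM (0.70 ± 0.12, adjusted p = 2.65e-04). Both ligands were higher in every AntimycinA library. Of 14 ligands and receptors tested, 3 were called higher and 0 lower, with a median of 0.10, and none of the receptors was among the 3. The OX40 gene Tnfrsf4 stood at 0.07 ± 0.08 and Tnfrsf9, which encodes the receptor 4-1BB, at -0.27 ± 0.09 (adjusted p = 0.163). Against Untreated, Ltb was lower in Piericidin (-0.46 ± 0.09) and not called in AntimycinA (0.13 ± 0.09, adjusted p = 0.377), while Tnfsf8 was higher in AntimycinA (0.74 ± 0.12) and not called in Piericidin (0.04 ± 0.12, adjusted p = 0.890).

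Several glycolytic enzymes were lower with antimycin A than with piericidin. Glycolysis turns glucose into pyruvate and lactate and makes ATP without the respiratory chain. Of 25 genes tested, 8 were called lower and 1 higher, against 0.299% and 0.436% of all genes, with a median log2 fold change of -0.32. Triosephosphate isomerase (Tpi1, chr6:124810586-124814296) read 130, 105 and 96.1 CPM in AntimycinA and 279, 239 and 193 CPM in Piericidin. The groups were well separated (-1.10 ± 0.12, adjusted p = 5.45e-08). Gapdh, the next enzyme of the pathway, read 231, 249 and 228 against 362, 319 and 332 CPM (-0.51 ± 0.09, adjusted p = 4.18e-04). Aldolase A (Aldoa) read 564, 560 and 518 against 765, 721 and 683 CPM (-0.40 ± 0.08, adjusted p = 0.00327).

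Enzymes called lower lay at steps from the entry to the end of the pathway, though not at every step. They included hexokinase 2 (Hk2, -0.85 ± 0.20), the phosphofructokinase Pfkl (-0.69 ± 0.15), phosphoglycerate kinase (Pgk1, -0.54 ± 0.12), lactate dehydrogenase A (Ldha, -0.43 ± 0.09) and pyruvate kinase (Pkm, -0.33 ± 0.08). Hk2 read 45.6, 51.8 and 31.7 CPM in AntimycinA and 111, 54.2 and 69.2 CPM in Piericidin. Its highest and lowest values were those of Piericidin replicate 1 and AntimycinA replicate 3, the libraries that stood apart. The lactate exporter Slc16a3 (-0.70 ± 0.19, adjusted p = 0.0705, 0.0342 by DESeq2) and the glucose transporter Slc2a1 (-0.45 ± 0.17, adjusted p = 0.288) were not called. Neither were the enzyme genes Hk1 (-0.04 ± 0.10), Gpi1 (-0.04 ± 0.09) and Pgam1 (-0.14 ± 0.29). The 1 enzyme called higher was the enolase isoform Eno3, at 132, 111 and 92.4 against 74.3, 73.9 and 69.9 CPM (0.62 ± 0.14, adjusted p = 0.0146). The main enolase Eno1 stood at -0.21 ± 0.10 (adjusted p = 0.420). Txnip, whose product restrains glucose uptake and whose level is known to follow glucose metabolites, was higher at 194, 212 and 222 against 137, 132 and 140 CPM (0.61 ± 0.11, adjusted p = 0.00140). Many of these enzymes have processed copies elsewhere in the genome that can share reads, and how the counting treated such reads is not given in the sources used here.

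The values against Untreated differed between enzymes. Tpi1 was lower than Untreated in AntimycinA (-0.85 ± 0.12) and not called in Piericidin (0.25 ± 0.12, adjusted p = 0.164). Ldha was lower in both, by -0.84 ± 0.09 and -0.42 ± 0.09. Aldoa was not called in AntimycinA (-0.05 ± 0.08, adjusted p = 0.756) and was higher in Piericidin (0.35 ± 0.08, adjusted p = 0.00158). Eno3 was lower in both, by -0.71 ± 0.13 in AntimycinA and -1.34 ± 0.14 in Piericidin. Txnip was not called in AntimycinA (-0.18 ± 0.11, adjusted p = 0.302) and was lower in Piericidin (-0.80 ± 0.11, adjusted p = 3.73e-06). The 8 lower calls depended on the libraries: 3 remained without Piericidin replicate 1, 4 without AntimycinA replicate 3 and 1, that of Tpi1, without both. Under the 1.5-fold minimum the list kept 1 lower call. The higher call of Eno3 was the only 1 of the list in that direction, and the list had 0 higher calls without each of Piericidin replicates 1, 2 and 3 and AntimycinA replicates 1 and 2. Tpi1 itself kept its call in every alternative run, the 1.5-fold minimum not being counted here.

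The letters ACGTG, the core of the hypoxia response element and part of the E-box CACGTG, were counted in the same promoter windows on both strands. This motif was chosen after the values were seen. It was present in 15 of the 25 windows of genes called lower (60%), in 11 of the 39 of genes called higher (28.2%), in 2604 of the 8705 tested genes with a window (29.9%) and in 21.8% of all symbols. Among 24 glycolytic genes with a window 14 held it (58.3%), and among the 8 called lower 6 did (75%). For 3 of the called enzymes the stretch upstream of the start is shown, with each ACGTG or its complement CACGT in capitals.
Ldha, chr7:46845750-46845794, plus strand: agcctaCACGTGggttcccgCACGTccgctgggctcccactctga
Pgk1, chrX:106186949-106186993, plus strand: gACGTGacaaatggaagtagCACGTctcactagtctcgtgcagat
Hk2, chr6:82774482-82774526, minus strand: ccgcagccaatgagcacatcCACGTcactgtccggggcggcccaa
Other genes known to respond to hypoxia, 14 tested, had a median of -0.24, and 0 were called by edgeR or DESeq2, with 6 lower and 0 higher at an unadjusted p under 0.05, against 5.12% lower and 5.37% higher of all genes. Hif1a itself stood at 0.07 ± 0.08 (adjusted p = 0.831).

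**Figure D4:**
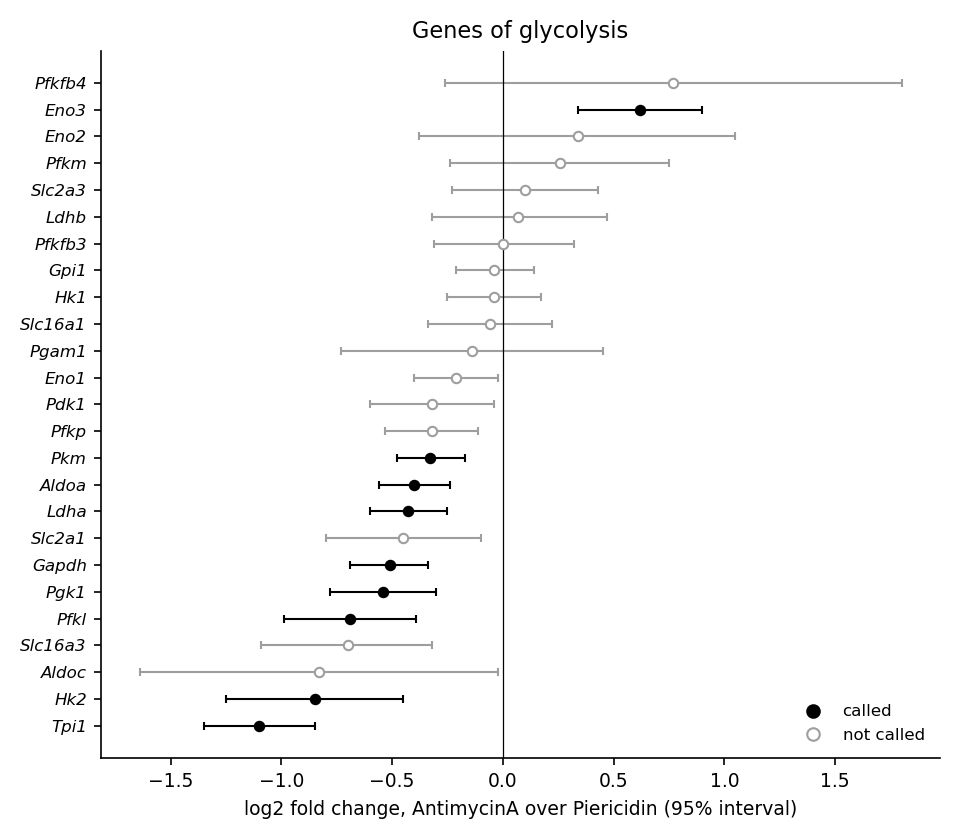
Log2 fold change of AntimycinA over Piericidin (x axis) with its 95% interval for the 25 tested genes of glycolysis (y axis); filled points were called, open points were not. The 8 enzymes called lower lie between -1.10 and -0.33, and Eno3 is the 1 gene called higher, at 0.62.

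Genes of G2 and M phase were below Untreated under both inhibitors: 25 of 25 were called lower in AntimycinA and 25 of 25 in Piericidin, against 8.50% and 7.93% of all genes. Between the inhibitors, 1 of the 25 was called lower in AntimycinA and 0 higher, with a median log2 fold change of -0.52 and 20 of 25 negative. DESeq2 called 0, and 10 of the 25 were lower at an unadjusted p under 0.05, against 5.12% of all genes. The called gene was Mki67, the proliferation marker Ki-67, at 125, 141 and 60.4 CPM in AntimycinA, 195, 183 and 147 CPM in Piericidin and 405 to 536 CPM in Untreated (-0.67 ± 0.16, adjusted p = 0.0272). AntimycinA replicate 3, the library apart on dimension 1, was the lowest, and the call was lost without it, without Piericidin replicate 1, without Piericidin replicate 2 and in a fit of the 2 groups alone. Of 27 genes of S phase 0 were called by edgeR and 1 lower by DESeq2 (8 lower at an unadjusted p under 0.05), with a median of -0.24. AntimycinA replicate 3 also read low in other genes of these 2 lists. Top2a read 161, 164 and 67.8 CPM in AntimycinA and 190, 197 and 133 CPM in Piericidin. Mcm3 read 190, 195 and 105 against 222, 235 and 189 CPM. For Aurka all AntimycinA libraries lay below Piericidin, at 7.89, 6.14 and 4.10 against 10.3, 16.0 and 8.58 CPM. The medians and counts of both lists include AntimycinA replicate 3 and are not given here without it. Orc1, which loads the replication machinery at origins, was among the largest falls at 9.69, 5.26 and 5.59 against 23.3, 21.8 and 13.2 CPM (-1.50 ± 0.35, adjusted p = 0.0243), a call lost without Piericidin replicate 1, Piericidin replicate 2, AntimycinA replicate 2 or AntimycinA replicate 3, and in the fit of the 2 groups alone.

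The other large falls were Gad1 and Kcnq1ot1. Gad1, which encodes a glutamate decarboxylase, read 6.82, 8.77 and 8.57 CPM in AntimycinA and 21.4, 20.7 and 32.8 CPM in Piericidin, while Untreated cells lay with Piericidin (18.8 to 29.6) and 3-NPA cells with AntimycinA (4.00 to 9.25). Its log2 fold change was -1.63 ± 0.33 (adjusted p = 0.00486, 0.0706 without Piericidin replicate 3). The imprinted antisense RNA Kcnq1ot1 stood at -1.06 ± 0.21, with Piericidin replicate 1 (170 CPM) far above the other Piericidin libraries (91.3 and 87.0). Without that library, without AntimycinA replicate 1 or 2 and in DESeq2 it was not called, and without a known strand setting its reads cannot be told from those of the overlapping gene.

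Calls in the Treg programme were 2 lineage genes and 1 suppressive effector gene. Foxp3 read 547, 774 and 771 CPM in AntimycinA and 743, 786 and 824 CPM in Piericidin, an overlap, with a log2 fold change of -0.17 ± 0.09 (95% interval -0.36 to 0.02, adjusted p = 0.551). The IL-2 receptor gene Il2ra stood at -0.22 ± 0.07 (-0.36 to -0.08, adjusted p = 0.166) and the checkpoint receptor gene Ctla4 at -0.25 ± 0.08 (-0.41 to -0.09, adjusted p = 0.166). Both were lower in AntimycinA in all 3 libraries and did not pass over all genes, although Ctla4 did without AntimycinA replicate 3 (-0.35, adjusted p = 0.0364). Of 21 lineage genes tested, 2 were called higher and 0 lower, against 0.436% and 0.299% of all genes, with a median of 0.00. The 2 were Capg, an actin-capping protein gene (0.40 ± 0.10, adjusted p = 0.0289), and Izumo1r, the folate receptor 4 gene (0.38 ± 0.09, adjusted p = 0.0322). Capg lost its call without Piericidin replicate 1, 2 or 3 AntimycinA replicate 1 or 3 or 3-NPA replicate 3. Izumo1r lost its call without Piericidin replicate 1 or 3, any AntimycinA replicate or Untreated replicate 3.

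Of 26 suppressive effector genes, 1 was called higher and 0 lower, against 0.436% and 0.299% of all genes, with a median of 0.01. It was Ebi3, a subunit of the cytokine IL-35, at 29.4, 41.5 and 35.8 against 13.3, 14.6 and 22.7 CPM (1.07 ± 0.26, adjusted p = 0.0273). The call of Ebi3 was lost without Piericidin replicate 1 or 2 or AntimycinA replicate 2 or 3. The cytokine gene Il10 read 30.5, 27.5 and 33.9 against 35.1, 32.8 and 47.8 CPM (-0.34 ± 0.23, 95% interval -0.81 to 0.13, adjusted p = 0.677). Foxp3 was above Untreated in both groups, by 0.34 ± 0.09 in AntimycinA and 0.51 ± 0.09 in Piericidin.

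No nuclear gene of the inhibited complexes was called. Of 93 nuclear genes of complexes I to V, edgeR and DESeq2 called 0. Over all genes edgeR called 0.736%, a share at which few of 93 would be called. At an unadjusted p under 0.05, 8 were higher and 1 lower, against 5.37% and 5.12% of all genes. The median was 0.01 for complex I, the target of piericidin, whose genes ran from -0.80 to 0.31. It was 0.04 for complex III, the target of antimycin A, whose genes ran from -1.44 to 0.67, and -0.03 and -0.01 without Piericidin replicate 2 and 3. Uqcrfs1, which encodes the Rieske iron-sulfur protein of complex III, read 62.1, 74.3 and 55.1 CPM in AntimycinA and 43.6, 92.8 and 52.7 CPM in Piericidin (0.03 ± 0.22, 95% interval -0.42 to 0.47). Dhodh read 31.2, 22.5 and 30.2 against 25.1, 26.6 and 22.4 CPM (0.18 ± 0.23, 95% interval -0.29 to 0.65). Both genes overlapped between the groups. Of 15 genes of pyrimidine synthesis 0 were called by either tool (1 lower at an unadjusted p under 0.05) and the median was 0.08.

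The integrated stress response, which raises Atf4 and its targets when translation is restrained, gave 1 higher call of 21 and 0 lower, with a median of -0.04. The call was Sesn2, which the p53 list also holds. Atf4 stood at -0.04 ± 0.10 and its target Asns, asparagine synthetase, at -0.30 ± 0.21 (adjusted p = 0.686). Asns was above Untreated in both groups, by 0.99 in AntimycinA and 1.29 in Piericidin on the log2 scale. Of 25 antioxidant genes of the Nrf2 pathway 0 were called by either tool, with 1 in each direction at an unadjusted p under 0.05 and a median of 0.03.

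Scattered calls fell in other lists. They were the lysosomal protease gene Ctsd (0.55 ± 0.11), the ribosomal protein gene Rps19 (0.39 ± 0.09), the interferon-induced Gbp3 (0.49 ± 0.11), the desaturase gene Scd2 (0.49 ± 0.12), the immunoglobulin gene Ighm (0.43 ± 0.11) and, lower, the chaperone gene Hsp90ab1 (-0.32 ± 0.07). Ighm, whose fellow B cell marker Cd79b stood at 1.46 ± 0.62 (adjusted p = 0.361), read 341, 427 and 351 CPM in AntimycinA and 276, 288 and 267 CPM in Piericidin, with 480 to 545 CPM in Untreated. Each of these 6 calls was lost on leaving out 1 or more libraries, Piericidin replicate 3 for Ctsd, Piericidin replicate 1 and AntimycinA replicate 2 for the other 5, and further libraries for each of those 5. In all, 57 of 61 lists had a tested gene, and 18 had 1 or more calls. The other 39 held 583 different genes, of which edgeR called 0 and 39 were higher and 42 lower at an unadjusted p under 0.05 (13.9% together, against 10.5% of all genes).

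**Figure D5:**
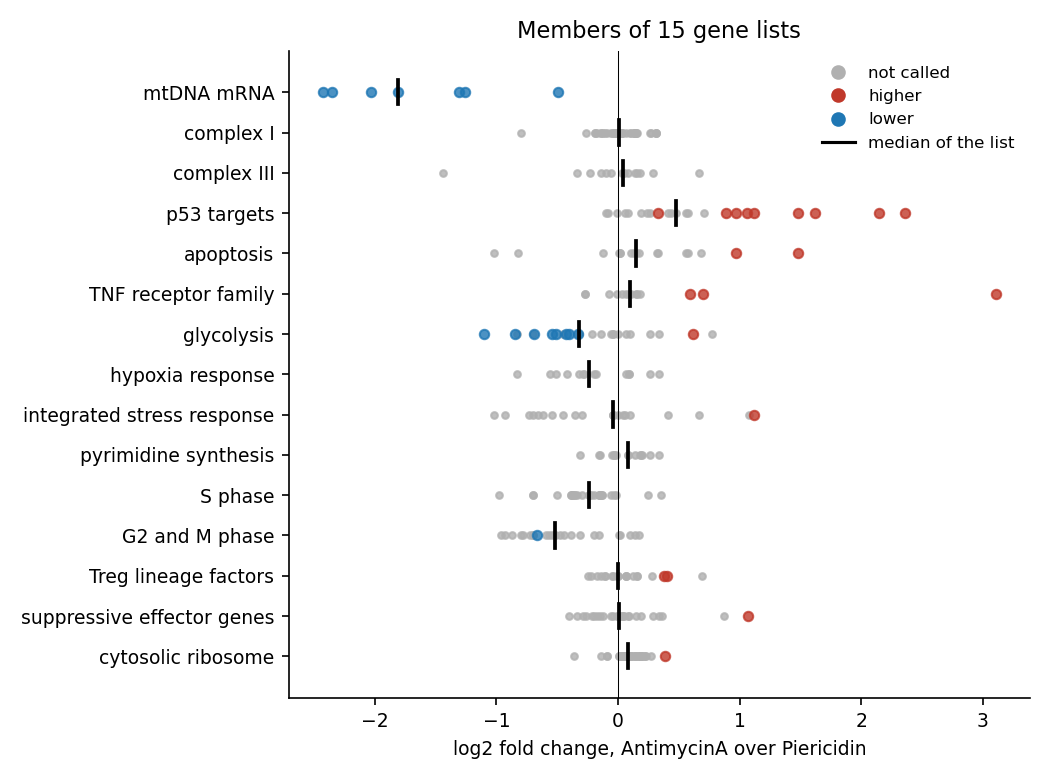
Log2 fold change of AntimycinA over Piericidin (x axis) of every tested member of 15 gene lists (y axis); red points were called higher, blue points lower, grey points were not called, and the black bar is the median of the list. The medians run from -1.81 for the mRNAs of mitochondrial DNA to 0.48 for the p53 targets.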

How the data were processed

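RNA of sorted Treg cells was measured by RNA sequencing, and the 12 in vitro libraries of the series were used. The deposited table holds raw counts of reads for each Ensembl gene in each library. Per the submitters' processing notes, bcl2fastq, the mm10 genome, TopHat, HTSeq and edgeR were used to make it. The versions of these tools, the strand setting and the treatment of reads that match several genes are not given in the sources used here. Per the labels' protocols, libraries were made with the NEB kit after poly(A) selection. Of 43430 gene IDs, 42462 had a symbol, and IDs without one held 0.533 to 0.779% of the counts of a library. A further deposited table with 11 per-sample columns that match no label was not used here.

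Counts were tested with edgeR 4.0.16 in R 4.3.3 (limma 3.58.1): filterByExpr by group, TMM factors (0.976 to 1.02), and glmQLFTest in 1 fit of the 12 libraries, and a gene was called where its p, adjusted over all genes tested by Benjamini-Hochberg, was under 0.05. CPM are relative to the counts of tested genes scaled by TMM. A prior count of 0.125 entered the log2 fold changes, and each ± is the standard error, the unshrunken estimate over the square root of F (n = 3 libraries per group). Between libraries the coefficient of variation from the common dispersion was 14.7%. The gene lists, members and tests were chosen with earlier results of these data known. The genes named are the 10 called genes that rose most and the 10 that fell most, if their CPM did not overlap and averaged 3 or more on the log2 scale (prior count 2), without variable segments, predicted genes and pseudogenes, and up to 3 called, or 2 uncalled, members, by p, of a list described, with Uqcrfs1, Dhodh, Il10, Ctla4, Il2ra and Foxp3 always given. Further members and genes were named after their values were seen. Alternatives were DESeq2 1.42.0, no filter on low counts, RLE factors, 1 CPM required in 3 libraries, a 1.5-fold minimum (glmTreat), the replicate number as a block, a fit of the 2 groups alone and each library left out. Leaving out the genes of mitochondrial DNA, and both libraries that stood apart, was added after seeing the data. Counts of 11460 genes were simulated once, with randomly chosen genes changed in AntimycinA only and equal means in the other groups. Of genes changed 1.5-fold 34.3% were called, of those changed 2-fold 71.6% and of those changed 4-fold 87.9%, and 6.52% of calls were false. These rates hold for that setting, which differs from the data in how many genes change.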

Additional observations from a re-analysis of the deposited data

How the results depend on the processing

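The 86 genes called between AntimycinA and Piericidin (51 higher, 35 lower) became 20 (13 and 7) against a 1.5-fold minimum and 45 (28 and 17) without the 2 libraries that stood apart. Leaving out 1 library at a time gave 43 to 96 calls, 29 to 55 higher and 14 to 41 lower. The lowest totals were 43 without Piericidin replicate 1, 55 without AntimycinA replicate 2 and 57 without AntimycinA replicate 1, which hold fewer libraries. Higher calls fell to 29 without Piericidin replicate 1 or AntimycinA replicate 1 and to 32 without Piericidin replicate 2 or AntimycinA replicate 2, and lower calls to 14 without Piericidin replicate 1 and 23 without AntimycinA replicate 2. DESeq2 called 122, RLE factors 85, no filter 110, the filter of 1 CPM 78, the 2 groups alone 82 and the fit without genes of mitochondrial DNA 74. The 1.5-fold minimum left 204 of 1754 calls of AntimycinA and 82 of 1584 of Piericidin against Untreated, and leaving out 1 library gave 1261 to 1849 and 1009 to 1628, the lowest of the latter without Piericidin replicate 3 and 1027 without Untreated replicate 1. With the replicate number as a block the counts were 105 (66 higher, 39 lower), 1900 and 1733. Whether the numbers pair the libraries is not settled. Correlations of same-numbered libraries were only 0.00 to 0.09 and 0 of 18 passed 0.1, yet 12 of 12 libraries correlated best with their own number. A small shared replicate effect may thus be present, and the main fit leaves it out. No call of a named gene reversed. Of 51 called genes named or chosen by the rule 20 kept their call in every alternative, and 31 lost it in 1 or more. The 1.5-fold minimum was left out of this count, and the cause of the losses was not tested. Medians of gene lists moved by more than the spread between libraries in 61 cases and by less in 1072.

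At 2707199 to 3445930 counts per library and 3 libraries per group, 34.3% of simulated 1.5-fold changes were recovered, so a gene that was not called is not shown to be equal.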

Other observations

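3-NPA, which blocks complex II, was not tested against either inhibitor. On the log2 scale of group means (0.1 CPM added), 3-NPA lay nearer to AntimycinA than to Piericidin for 39 of the 51 genes called higher (76.5%), 20 of the 35 called lower (57.1%) and 50.4% of all genes tested. Of the 8 glycolytic genes called lower, 3-NPA lay nearer to AntimycinA for 3 (Aldoa, Pfkl and Pgk1). It averaged 585 CPM of Aldoa (Piericidin 723, AntimycinA 547), 184 CPM of Tpi1 (237 and 110) and 322 CPM of Gapdh (338 and 236). Txnip averaged 327 CPM in 3-NPA, above the 137 and 209 CPM of Piericidin and AntimycinA.

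Of 14 genes of resting T cells 0 were called by edgeR or DESeq2, 6 were higher and 0 lower at an unadjusted p under 0.05 (5.37% and 5.12% of all genes), and the median log2 fold change was 0.19. Among them Tcf7, a factor of naive and memory T cells, stood at 0.34 ± 0.10 (adjusted p = 0.128) and Il7r, the IL-7 receptor gene, at 0.45 ± 0.13 (adjusted p = 0.0919; 0.0283 with the replicate block, 0.0329 in the fit of the 2 groups alone and 0.0128 with no filter). Of 20 genes of chemokine receptors and homing, 0 were called by either tool, 6 were higher and 0 lower at an unadjusted p under 0.05, and the median was 0.18. Cytosolic ribosomal proteins had 39 of 43 positive log2 fold changes (50.3% over all genes) with a median of 0.08, 1 call, and 10 higher and 0 lower at an unadjusted p under 0.05.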
